A study of Mus musculus with 96 samples.

Results

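Spleen and blood were compared within the same wild type mice of a collagen induced arthritis study, to ask which genes mark either tissue in an immunised animal. The comparison used all 48 wild type arrays of the 96 arrays in the study: 24 of whole spleen and 24 of whole blood, paired by the experiment and mouse number that each sample title carries. The mice were males of the strain C57BL/10.Q/rhd, also named BQ. Of the 24 mice, 12 were killed 15 days and 12 were killed 44 days after immunisation, and each experiment, I and II, gave 6 mice to each day. Every mouse had been immunised, so no level of a resting animal is given here. Cells were neither stimulated nor sorted, and all RNA had gone through globin removal, which depletes haemoglobin transcripts with capture oligonucleotides. The other 48 arrays came from mice of the strain C57BL/10.Q/rhd.Ncf1m1J, mutated in Ncf1, a subunit of the phagocyte NADPH oxidase, and served only for a test of whether the tissue difference depended on genotype.

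The mouse spleen has a red pulp and a white pulp. In the red pulp, macrophages take up old red cells and recycle their iron, and in mice new red cells and granulocytes are also made there throughout life. The white pulp is lymphoid tissue built on a stroma whose chemokines place B cells and T cells, and the marginal zone between both holds its own macrophages and B cells. Whole blood carries reticulocytes (red cells that have lost their nucleus but still hold RNA), platelets, neutrophils, monocytes and lymphocytes, and none of the fixed stroma. In bulk RNA, fewer cells of a type and less RNA per cell cannot be told apart.

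Array values are log2 of the fluorescence intensity of a gene's brightest probe, differences are spleen minus blood averaged over the mice, and errors are standard errors from limma with n = 24 mice unless another n is given. A gene is said to mark a tissue when its Benjamini-Hochberg adjusted p was under 0.05 and it was at least 2-fold higher there. Levels of different genes are not compared, because each probe has its own response.

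All 12 blood arrays of experiment I stood apart by transcripts of the liver. Apoa2, an apolipoprotein made by hepatocytes, had values from 7.80 to 15.14 in those arrays (median 14.17), against 5.92 to 6.28 (median 6.07) in the 12 blood arrays of experiment II and 5.84 to 6.28 in all 24 spleens. The mean over 41 measured liver genes ran from 6.53 to 12.1 in experiment I blood and from 6.01 to 6.08 in experiment II blood. At day 15 its lowest value in experiment I blood was 10.2, and at day 44 the lowest was 6.53. In 3 experiment I spleens, from mice 14 and 16 at day 15 and mouse 37 at day 44, the mean over 34 genes of the exocrine pancreas was over 1 log2 unit above the spleen median, at 7.46 to 11.9, and in experiment I blood that mean reached 8.35. Blood arrays of experiment I correlated with each other at Pearson r from 0.815 to 0.989, and those of experiment II at 0.976 to 0.996. The experiments used different isolation kits for both tissues, and experiment I blood RNA was also precipitated with lithium chloride. What brought liver transcripts into experiment I blood was not tested. Results are therefore given with experiment II alone, n = 12 mice, beside those of all mice wherever the values part.

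**Figure D1:**
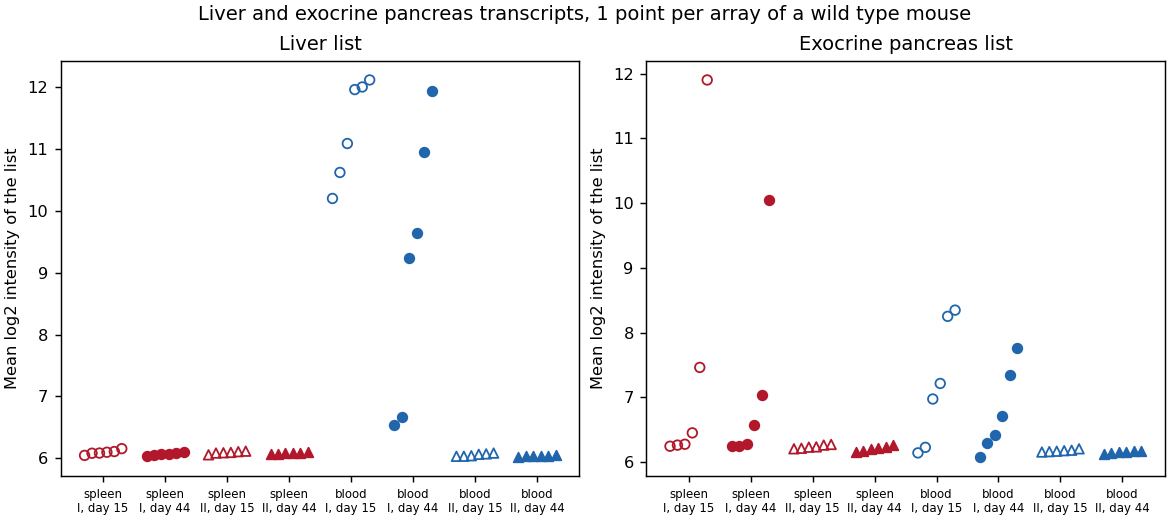
Mean log2 intensity over the liver list (left, 41 genes) and the exocrine pancreas list (right, 34 genes), 1 point per array, by tissue, experiment and day (open symbols day 15, filled symbols day 44, circles experiment I, triangles experiment II). All 12 experiment I blood arrays lie above 6.5 for the liver list while every other array lies near 6. For the pancreas list 3 experiment I spleens stand out, and experiment I blood reaches 8.35 (median 6.84, against 6.16 in experiment II blood).

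The deposited values also carry a scale that differs between the tissues. All 24 spleen arrays share a median intensity of 82.2 and an upper quartile of 221, and all 24 blood arrays a median of 73.4 and an upper quartile of 138, because each tissue was quantile normalised on its own. A gene in the middle of the ranks therefore appears slightly higher in spleen: the median difference over all 16593 genes was 0.15. The shift is larger for brighter genes: over the 10060 genes above the array median in 1 tissue or both, the median difference was 0.57. When all arrays were quantile normalised together, the median over all genes was -0.01.

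As deposited, 2416 genes marked spleen, 14.6% of the 16593 tested, and 339 genes marked blood, 2.04%. Without the size limit, 9669 genes (58.3%) were called higher in spleen and 1786 (10.8%) in blood. With both tissues normalised together, 528 genes (3.18%) marked spleen and 559 (3.37%) marked blood, so the share of marking genes that were higher in spleen was 87.7% as deposited and 48.6% on the common scale. Of those 528 genes, 527 were among the 2416, and 337 of the 339 blood genes still marked blood. In experiment I alone 2989 genes (18%) marked spleen and 491 (2.96%) marked blood. In experiment II alone 2242 genes (13.5%) marked spleen and 253 (1.52%) marked blood, of which 1811 and 166 were shared with all mice. Of the 339 blood genes, 39 were called in the opposite direction in experiment II. Under 5 settings (all mice as deposited, all mice on the common scale, either experiment as deposited, and experiment II on the common scale) marking held for 425 spleen genes and 108 blood genes. Levels in the 24 spleens and the 24 bloods did not overlap for 1648 genes that were higher in spleen (9.93%) and 47 that were higher in blood (0.283%).

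The 425 and the 108 genes were also compared by their promoters, taken as 300 bases around the transcript start, most of them upstream, in RefSeq on GRCm38.p6, with 1 promoter per gene. A promoter was found for 336 of the 425, for 90 of the 108 and for 13336 of all 16593 genes. GAGGAA, a core bound by the myeloid and B cell factor PU.1, was sought on both strands and was held by 32.4% of the spleen promoters, 14.4% of the blood promoters and 27.2% of all promoters. AGATAA, a core bound by the erythroid factor GATA1, was held by 6.2%, 7.8% and 9.7%. These shares are descriptions with no test. Examples were taken from those of the 425 and 108 genes whose promoter holds the core, with 1 chromosome left out. Among them Erich2, not shown, has the largest blood difference. Ccl21a has the largest spleen difference there and Bcl2l1 the second largest blood difference. Both promoters are shown 5′ to 3′ with the core in capitals (GAGGAA in Ccl21a, at chr4:42773942-42774241, minus strand, and AGATAA in Bcl2l1, at chr2:152828440-152828739, minus strand).
Ccl21a: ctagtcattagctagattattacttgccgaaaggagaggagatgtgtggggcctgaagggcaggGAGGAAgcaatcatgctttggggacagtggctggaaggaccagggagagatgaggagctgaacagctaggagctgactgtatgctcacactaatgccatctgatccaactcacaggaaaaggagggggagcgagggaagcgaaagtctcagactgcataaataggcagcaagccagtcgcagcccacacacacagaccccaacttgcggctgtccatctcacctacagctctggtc
Bcl2l1: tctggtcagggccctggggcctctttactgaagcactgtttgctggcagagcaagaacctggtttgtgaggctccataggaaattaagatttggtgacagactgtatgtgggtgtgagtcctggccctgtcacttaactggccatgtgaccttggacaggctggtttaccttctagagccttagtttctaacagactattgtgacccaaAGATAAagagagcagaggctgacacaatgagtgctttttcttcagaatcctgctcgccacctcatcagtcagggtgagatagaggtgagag

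Macrophages of the red pulp gave the clearest spleen signal. Of 31 measured genes for red pulp macrophages and iron recycling, 23 marked spleen and 1 marked blood. Their median difference was 1.94, against 0.15 over all genes and 0.57 over the brighter genes. In experiment II on the common scale 18 of the 31 marked spleen (3.85% of all genes did so) and the median was 1.97. Vcam1, an adhesion molecule that red pulp macrophages and stroma carry, had values from 11.67 to 13.39 in spleen (median 12.83) and from 5.82 to 6.44 in blood (median 6.10). No blood array came near any spleen, and the blood mean lay below the median of all probes, so the fold is limited by background there. Its difference was the largest of all genes, 6.56 ± 0.08 (94.1-fold, limma adjusted p 1.4e-26). Spic encodes the transcription factor that red pulp macrophages need, and its values were 9.63 to 11.71 in spleen (median 10.92) and 6.14 to 6.80 in blood (median 6.45). The tissues were again fully separate, with a difference of 4.39 ± 0.07 (limma adjusted p 1.9e-23).

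The receptor tyrosine kinase Axl, which helps macrophages clear dying cells, was at 12.25 to 13.01 in spleen and 6.90 to 9.17 in blood (5.06 ± 0.09). Outside the list, Mfge8, a secreted bridge between dying cells and phagocytes, differed by 5.33 ± 0.08. Itgad, an integrin chain of red pulp macrophages, differed by 4.75 ± 0.05, with 4.73 and 4.77 in the experiments, although its 3 probes ran from 0.32 to 4.75. Iron handling genes lay on the same side: the haem oxygenase Hmox1 at 3.80 ± 0.09, the iron exporter Slc40a1 at 3.64 ± 0.15 and the haemoglobin scavenger receptor Cd163 at 2.77 ± 0.11. The 1 member that marked blood was the haem transporter Slc48a1 (-1.90), and the ferritin chain genes Ftl1 (-0.68) and Fth1 (-0.18) were called higher in blood below 2-fold.

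Genes of marginal zone macrophages were also higher in spleen. All 7 measured genes were called higher in spleen, where 58.3% of all genes were, and the smallest difference was 0.07. Of the 7, 4 marked spleen, where 14.6% of all genes did so, and these 4 held under every setting named above. Cd209b, a C-type lectin that captures polysaccharides, had values of 8.45 to 10.03 in spleen and 5.88 to 6.60 in blood (3.10 ± 0.06). The scavenger receptor Marco differed by 1.94 ± 0.06 and the sialic acid receptor Siglec1 by 1.84 ± 0.06. The blood means of all 3 were below the median of all probes.

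**Figure D2:**
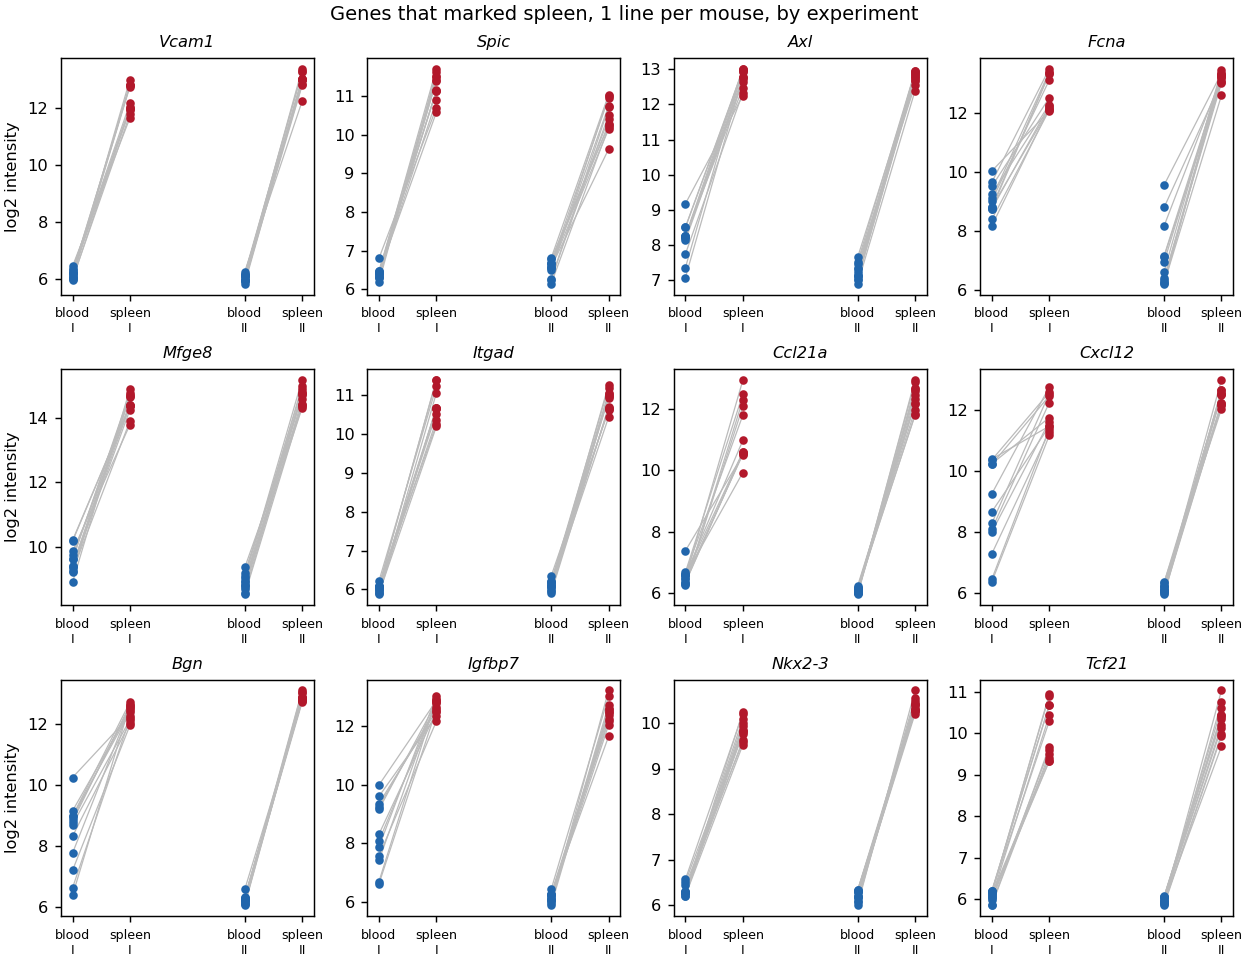
Log2 intensity of 12 genes that marked spleen, 1 line per mouse joining blood (blue) and spleen (red), with experiment I on the left and experiment II on the right of each panel. Spleen lies above blood in all 24 mice for each gene, and the blood values of Cxcl12, Bgn and Igfbp7 spread upward in experiment I only.

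Genes of the fixed framework followed. Of 47 stroma and matrix genes 27 marked spleen, of 38 endothelial genes 18, and of 18 smooth muscle genes 6, where 14.6% of all genes did so. On the common scale in experiment II these counts were 25, 20 and 5, beside 3.85% of all genes. The list medians there were 1.30, 1.04 and 0.07, and 0, 2 and 1 members marked blood. Bgn, the matrix proteoglycan biglycan, was at 11.95 to 13.10 in spleen and 6.05 to 10.24 in blood (5.34 ± 0.15). Its blood values were 6.37 to 10.24 in experiment I and 6.05 to 6.57 in experiment II, and the difference was 4.04 ± 0.28 and 6.63 ± 0.06 respectively (n = 12 each). Igfbp7, a secreted protein of vessels and stroma, showed the same split (4.36 and 6.33). Of its 2 probes 1 was at least 2-fold higher in spleen and the other was at -0.06.

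Among vessel genes, Plvap, which forms the diaphragms of fenestrated endothelium, differed by 4.03 ± 0.11, and Stab2, a scavenger receptor of sinus endothelium, by 3.59 ± 0.07. The smooth muscle actin Acta2 differed by 4.06 ± 0.11 and the muscle filament gene Des by 3.09 ± 0.05. Single exceptions that marked blood over all mice as deposited were Vtn among stroma genes and Vwf among endothelial genes. Vtn, a liver product, differed by -2.24 over all mice and by 0.01 in experiment II. Vwf, which platelets also carry, differed by -1.25, and by -2.45 in experiment II.

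A list of transcription factors of the spleen had 17 measured genes, not all of them limited to it (Klf4 is also in the monocyte list). As deposited 9 marked spleen and 0 marked blood, where 14.6% and 2.04% of all genes did so, and 3 were called higher in blood. In experiment II on the common scale 9 marked spleen and 1 marked blood, beside 3.85% and 3.12% of all genes. Nkx2-3, a homeobox factor needed for spleen and mucosal vessels, had values of 9.53 to 10.73 in spleen (median 10.24) and at most 6.56 in blood (median 6.27). The difference of 3.88 ± 0.05 was seen in all 24 mice (limma adjusted p 2.9e-26). Tcf21, a factor of splenic mesenchyme, was at 9.33 to 11.04 in spleen and 5.86 to 6.21 in blood (4.17 ± 0.09). Wt1, also expressed by mesothelium that covers the organ, differed by 2.27 ± 0.08. Tlx1, required for spleen formation in the embryo, was at 5.85 to 6.17 in spleen and 5.94 to 6.20 in blood, below the median of all probes in both.

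Chemokines fell on both sides. Of 30 measured, 10 marked spleen and 4 marked blood, where 14.6% and 2.04% of all genes did so. The largest were ligands that white pulp stroma makes. Ccl21a, a CCR7 ligand for T cells and dendritic cells, was at 9.93 to 12.97 in spleen (median 12.13) and 5.95 to 7.38 in blood (median 6.25). Its difference was 5.51 ± 0.15, and Ccl21b and Ccl21c, close copies that share sequence with it and may share signal, differed by 4.52 and 4.36. Cxcl13, the follicular ligand for B cells, differed by 4.30 ± 0.14, and Ccl19, the other CCR7 ligand, by 3.74 ± 0.13. Cxcl12, a stromal ligand that retains progenitors and plasma cells, differed by 3.26 ± 0.34 in experiment I and 6.30 ± 0.08 in experiment II (n = 12 each), with probes that ran from -0.05 to 4.78. The 4 chemokines that marked blood were the platelet products Ppbp and Pf4 and the myeloid chemokines Ccl9 (-1.79 ± 0.06) and Ccl6 (-1.45).

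Cells in division were a further spleen signature. Of 44 cell cycle genes 32 marked spleen and none marked blood, with a median of 1.76. On the common scale in experiment II 21 marked spleen and 1 marked blood. Prc1, which bundles microtubules of the dividing cell, was at 9.29 to 12.22 in spleen (median 10.95) and 6.42 to 9.41 in blood (median 6.85), with spleen higher in all 24 mice and a small overlap of the ranges (3.77 ± 0.18). Cdc20, an activator of the anaphase complex, differed by 3.02 ± 0.16, Birc5, the survivin gene, by 2.90 ± 0.15 and Kif22, a mitotic kinesin, by 2.95 ± 0.18.

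Genes of granulocyte precursors were mostly on the spleen side too. Of 23 genes for granule proteins and precursors 11 marked spleen and 2 marked blood, and 8 of the 11 held under every setting. Camp, the cathelicidin of secondary granules, was at 9.94 to 12.66 in spleen and 6.12 to 9.91 in blood (4.42 ± 0.15). Ltf, the lactoferrin of the same granules, differed by 4.23 ± 0.19 with its probes at 0.98 and 4.23. Mpo, the peroxidase of primary granules made at the promyelocyte stage, was at 8.37 to 11.49 in spleen and 5.84 to 6.86 in blood (3.79 ± 0.13). Of 21 genes of eosinophils, basophils and mast cells 3 marked spleen and 0 marked blood, where 14.6% and 2.04% of all genes did so. At any size 10 were called higher in spleen and 7 in blood, with a median of 0.07. In experiment II on the common scale 2 marked spleen and 3 blood, beside 3.85% and 3.12% of all genes. The eosinophil granule gene Prg2 differed by 4.55 ± 0.13 and Prg3 by 2.43 ± 0.08. The 2 genes of the precursor list on the blood side, Orm1 (-2.06) and Mgst1 (-1.38), which the liver also makes, were at 0.28 and -0.01 in experiment II.

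Genes of mature neutrophils were more often called higher in blood (21 of 38) than in spleen (6 of 38). Among all genes these shares were 10.8% and 58.3%. Of the 38, 6 marked blood and 1, the iron exporter Slc40a1 already named with the macrophages, marked spleen. In experiment I 1 marked blood and 2 marked spleen. In experiment II 12 marked blood and 2 spleen, and 22 marked blood on the common scale (3.12% of all genes did so). Retnlg, a resistin-like hormone of neutrophils, was at 11.99 to 12.73 in experiment II blood and 9.38 to 10.47 in experiment II spleen, with no overlap (-2.32 ± 0.06, n = 12). In experiment I the ranges were 8.23 to 11.68 and 8.55 to 10.64 and overlapped, with a limma adjusted p of 0.060. Clec4d, a C-type lectin of neutrophils and monocytes, differed by -2.41 in experiment II and -0.85 in experiment I. The calgranulin S100a8 was at 11.81 to 14.37 in spleen and 11.16 to 14.36 in blood, and its difference of 0.05 ± 0.14 did not pass the test (0.79 in experiment I, -0.69 in experiment II).

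Hp, the haptoglobin gene that neutrophils store and the liver secretes, differed by -3.20 in experiment I, where liver transcripts were present, and by -1.88 ± 0.06 in experiment II (n = 12). The chemokine receptor Cxcr2, which neutrophils use on release from marrow, had a difference of -0.80 ± 0.13 over all mice and -1.41 in experiment II.

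Red cell genes fell on both sides. Globin transcripts themselves cannot be read as levels because of the depletion. Hba-a1 remained bright in both tissues (12.53 to 15.23 in spleen, 14.84 to 15.34 in blood), and its difference of -0.17 ± 0.11 did not pass the test. Hbq1a, a theta globin, was at 6.63 to 7.89 in spleen (median 7.48) and 10.40 to 12.79 in blood (median 12.18), separate in every array (-4.70 ± 0.14). The same limit holds for Hbq1a, as whether the depletion reached its transcript was not tested. Klf1, the transcription factor that starts globin expression in erythroblasts, went the other way, at 7.92 to 10.93 in spleen and 6.31 to 6.82 in blood (2.92 ± 0.16).

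Of 16 genes for haem synthesis and iron uptake, 9 marked spleen and 3 marked blood. The 3 blood genes over all mice were Fech, Alas2 and Glrx5. Fech inserts iron into the finished ring, and Glrx5 is an iron-sulphur cluster protein (-1.27). Both marked blood under every setting. Alas2, the erythroid enzyme of the starting step (-1.37 ± 0.11), fell short of the 2-fold limit with experiment II alone (-0.94 ± 0.15, n = 12). Fech was at 6.87 to 9.70 in spleen (median 8.16) and 10.43 to 13.63 in blood (median 11.49), a difference of -3.61 ± 0.15, and 1 of its 3 probes was only at -0.62. On the spleen side stood the transferrin receptor Tfrc, at 9.80 to 12.43 against 8.03 to 10.78 in blood (2.37 ± 0.12), and Abcb10, a mitochondrial transporter (2.09 ± 0.14). Of 16 erythroid regulators 7 marked spleen and 1, the cell cycle factor E2f2, marked blood, yet on the common scale in experiment II the median of that list was -0.04 and 2 marked each tissue. Of 16 membrane and skeleton genes 5 marked spleen, and on the common scale 3 marked spleen and 2 blood, the list median going from 0.35 to -0.03. The band 3 gene Slc4a1 was -0.56 ± 0.13 over all mice and -0.38 in experiment II, where it did not pass the test (limma adjusted p 0.065).

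Of 25 genes for reticulocyte maturation 11 marked blood, and all 11 held under every setting. Nxpe2 was the only member that marked spleen over all mice. Ube2l6, an enzyme that attaches ubiquitin and the interferon-induced modifier ISG15, was at 13.23 to 14.84 in blood (median 14.68) and 9.06 to 10.84 in spleen (median 9.85). The tissues were fully separate in both experiments, with a difference of -4.70 ± 0.12 (25.9-fold, limma adjusted p 3.9e-20). Outside the list, Fam220a had the largest blood difference of all genes, at 13.43 to 14.84 in blood and 8.12 to 9.93 in spleen (-5.35 ± 0.12, 40.9-fold), with 1 of its 3 probes at -0.04. Slc25a39, also outside it, a carrier of the mitochondrial membrane that red cell precursors need for haem, was at 11.52 to 13.65 in blood and 8.30 to 10.94 in spleen (-3.36 ± 0.13).

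Members of the list that clear organelles lay on the same side. Bnip3l, the mitophagy receptor that removes mitochondria from reticulocytes, was at 14.26 to 14.87 in blood and 11.43 to 13.32 in spleen (-2.23 ± 0.07). Ube2o, which marks ribosomes of the ripening cell for degradation, differed by -2.08. Outside the list, Bcl2l1, the survival factor whose promoter is shown above, was at 9.68 to 11.99 in blood and 7.86 to 9.27 in spleen, separate in every array (-2.35 ± 0.14), and its 3 probes were all at -1.71 or lower. Also outside it, the ferritin receptor Ncoa4, which releases stored iron, differed by -3.06 ± 0.16, and among list members the peroxide scavengers Cat and Prdx2 differed by -2.22 and -1.59.

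**Figure D3:**
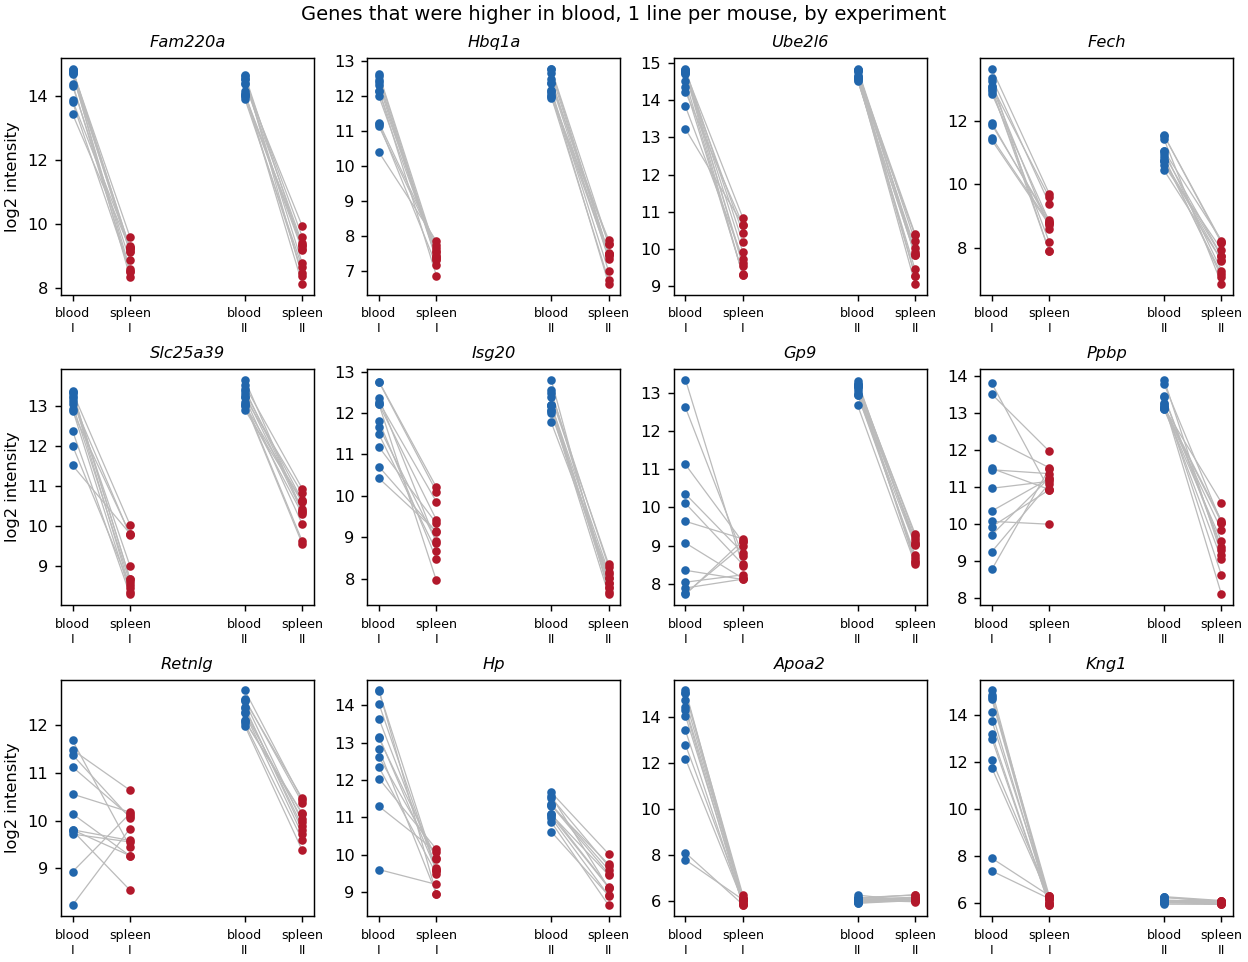
Log2 intensity of 12 genes that marked blood over all mice, drawn as in the plot of spleen genes. The panels of Fam220a, Hbq1a, Ube2l6, Fech, Slc25a39 and Isg20 are separate between tissues in both experiments, the platelet genes Gp9 and Ppbp and the neutrophil gene Retnlg are separate only in experiment II, and the liver genes Apoa2 and Kng1 are high only in experiment I blood.

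Platelet genes marked blood in experiment II and in no case in experiment I. Of 22 measured, 12 marked blood over all mice, 0 in experiment I (median -0.12) and 14 in experiment II (median -2.34). Gp9, a chain of the platelet receptor for von Willebrand factor, was at 12.68 to 13.31 in experiment II blood and 8.52 to 9.31 in experiment II spleen, a difference of -4.18 ± 0.07 (n = 12). In experiment I blood it ranged from 7.72 to 13.36, across and above the spleen range of 8.11 to 9.17, and the difference of -1.04 ± 0.50 did not pass the test (limma adjusted p 0.089). Ppbp, the platelet basic protein, was -3.87 ± 0.18 in experiment II, and in experiment I it was 0.18 ± 0.41, where its adjusted p by limma was 0.72. The experiment term itself was called for 17 of the 22, all lower in experiment II (17.8% of all genes were called lower), with -3.43 ± 0.57 for Gp1bb and -4.05 ± 0.46 for Ppbp. Kit, collection tube and experiment cannot be told apart.

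Clotting factors repeated both patterns. Of 21 measured, 8 marked blood over all mice. F2, Proc, Serpinf2 and Serpind1, all made by the liver, were at -1.60, -1.74, -1.78 and -1.14 over all mice, and between 0.00 and 0.14 in experiment II. F5, F13a1 and Vwf, which platelets or monocytes also hold, were larger in experiment II, at -2.43, -2.29 and -2.45. F10 was lower in spleen in both experiments, at -2.68 and -1.28.

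Of 41 liver genes, a list chosen after the data were seen, 33 marked blood over all mice, 34 in experiment I alone, whereas experiment II gave 0. The differences in experiment II ran from -0.20 (Arg1) to 0.45 (Serpina1c). Complement genes of the liver showed the same split: C9, C8g, Cfi, Masp2 and Hc marked blood over all mice with -2.25 to -1.06, as did the macrophage receptor Vsig4 (-1.03), and in experiment II none of the 27 complement genes marked blood. On the spleen side 8 complement genes marked in experiment II, led by Fcna, a ficolin of macrophages (6.02), and C1qb and C1qc, chains of C1q that macrophages make (4.55 and 4.54). Kng1, a liver kininogen among the 15 largest blood differences (-3.33 over all mice), differed by -6.59 in experiment I but -0.07 in experiment II.

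**Figure D4:**
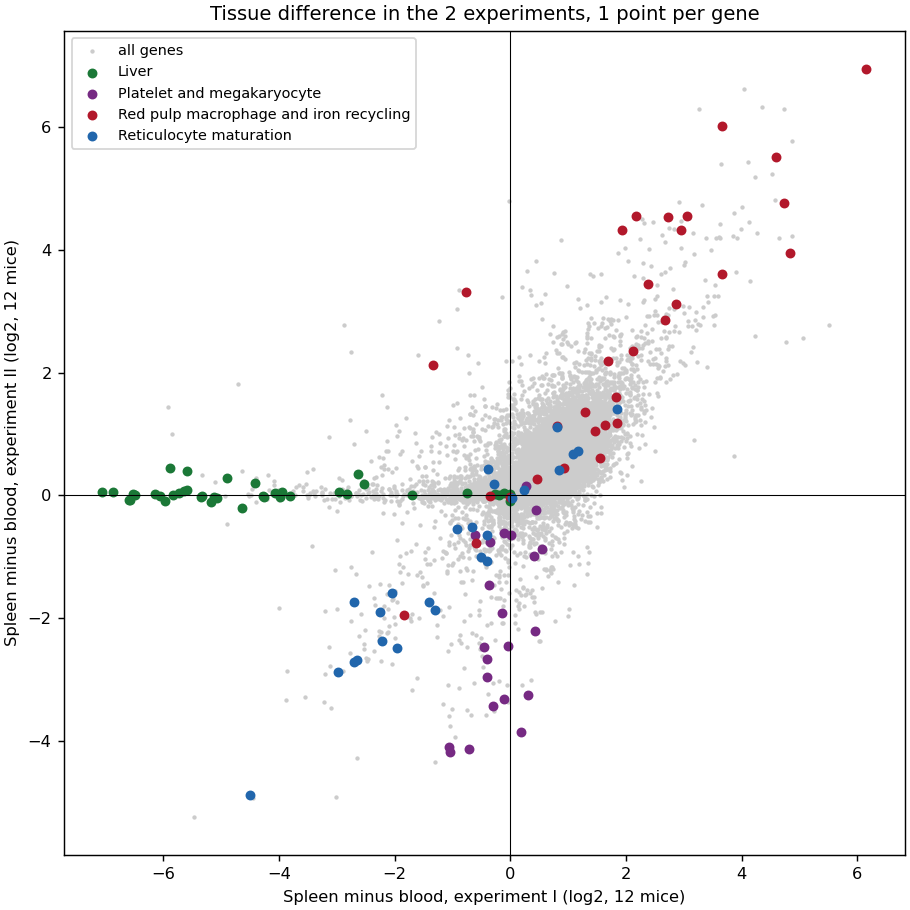
Spleen minus blood difference of each of 16593 genes in experiment I (x axis, log2, 12 mice) against experiment II (y axis, log2, 12 mice), with 4 gene lists in colour. Liver genes spread along the negative x axis with y near 0, platelet genes spread down the negative y axis with x near 0, and red pulp macrophage genes and reticulocyte genes lie mostly in the corners where both experiments have the same sign.

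Lymphocyte genes depended on the scale. All 31 measured B cell genes were called higher in spleen, where 58.3% of all genes were. As deposited 16 marked spleen (25 in experiment I, 5 in experiment II), but on the common scale in experiment II 2 did, with a median of 0.11. Cd79a, a chain of the B cell receptor complex, was at 9.91 to 12.95 in spleen and 8.13 to 12.17 in blood and was higher in spleen in all 24 mice (1.48 ± 0.13). Its difference was 1.12 in experiment II and 0.87 on the common scale there. Swap70 and Btk, which act in B cell migration and receptor signalling, were the 2 that marked spleen in that setting, at 1.04 and 1.52. Genes of marginal zone B cells kept Asb2 (4.69 ± 0.12) and the Notch regulator Dtx1 (2.23 ± 0.09) under every setting, while Cd9, which platelets carry in amount, was -2.45 over all mice and -3.95 in experiment II.

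None of 32 T cell genes marked either tissue over all mice. Of the 32, 16 were called higher in spleen, where 58.3% of all genes were. The list median was 0.15, beside 0.15 for all genes and 0.57 for the brighter genes. On the common scale in experiment II 7 marked blood and the median was -0.46. Cd3e, a chain of the T cell receptor complex, was at 9.10 to 10.49 in spleen and 8.70 to 10.46 in blood, with 0.25 ± 0.11 as deposited and -0.52 on the common scale. Of 31 NK and cytotoxic genes 2 marked spleen as deposited, Cd160 and Xcl1, where 14.6% of all genes did so, and neither did on the common scale. As deposited, 6 marked spleen in experiment I and 0 in experiment II. In experiment II on that scale 6 of the 31 marked blood, with a median of -0.39.

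Lists of antigen presenting cells had a few members that kept their side, while the list medians fell with the scale. In experiment II on the common scale the medians were 0.04 for conventional dendritic cells, 0.11 for plasmacytoid dendritic cells and 0.18 for MHC class II. There 3, 2 and 3 members marked spleen and 1, 1 and 0 marked blood, beside 3.85% and 3.12% of all genes. Of 29 genes of conventional dendritic cells 9 marked spleen as deposited, with a median of 0.31, and 3 did under every setting. Ffar2, a receptor for short-chain fatty acids, was at 10.22 to 11.40 in spleen and 6.10 to 7.19 in blood (4.28 ± 0.06), and Cadm1, an adhesion molecule of cross-presenting dendritic cells, differed by 2.85 ± 0.07. Of 16 genes of plasmacytoid dendritic cells 6 marked spleen, led by the lectin Siglech at 2.28 ± 0.13 (probes from -0.01 to 2.28). Of 22 MHC class II genes 11 marked spleen and 3 held under every setting, among them the costimulatory ligand Cd86 (2.56 ± 0.07). H2-Ab1, the class II beta chain, differed by 1.42 ± 0.11 as deposited and 1.47 on the common scale. H2-Ea, another class II gene, was 1.29 as deposited but -0.25 in experiment II on the common scale.

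Of 35 type I interferon genes 6 marked spleen and 3 marked blood as deposited, where 14.6% and 2.04% of all genes did so, and on the common scale none marked spleen and 4 marked blood. Rsad2, the antiviral enzyme viperin, was at 14.02 to 14.93 in blood and 11.43 to 13.20 in spleen with no overlap (-2.17 ± 0.10), and the regulator Irf7 was -1.25 ± 0.13. Isg20, an exonuclease that interferon induces, differed by -2.65 and -4.28 in the experiments. Ifit3, an interferon-induced RNA-binding protein, was on the spleen side as deposited (1.26 ± 0.06) and at 0.45 on the common scale.

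Genes of general machinery marked spleen less often on the common scale, as did all genes (14.6% as deposited, 3.18% on the common scale). Of 36 proteasome genes 13 marked spleen as deposited and 1 on the common scale, of 62 ribosomal protein genes 6 and 1, and of 62 oxidative phosphorylation genes 7 and 1. Psme3, an activator of the nuclear proteasome, kept the blood side in each (-2.11 ± 0.15 as deposited, -2.38 on the common scale).

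**Figure D5:**
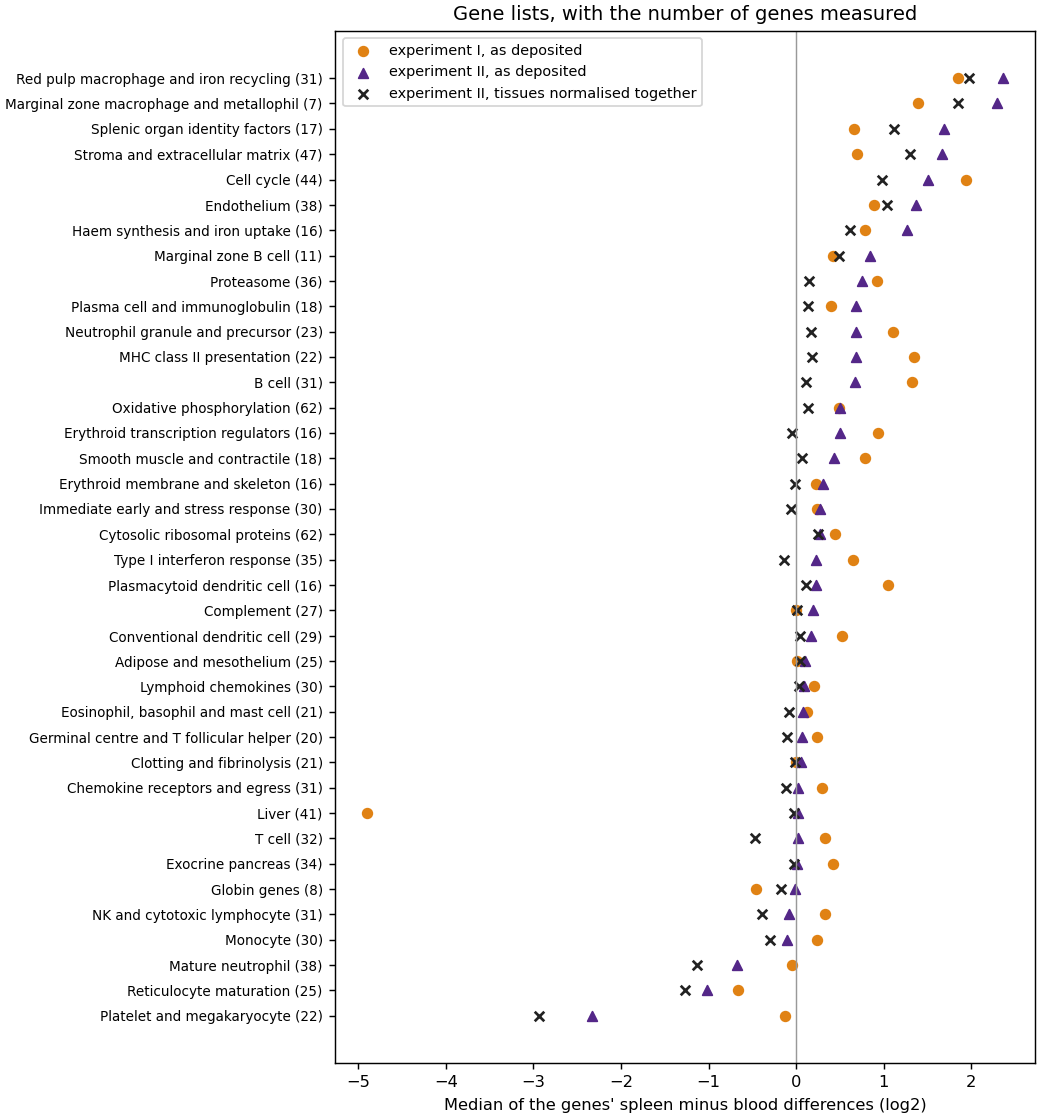
Median over the genes of each list of their spleen minus blood difference (log2), in experiment I as deposited (circles), experiment II as deposited (triangles) and experiment II with both tissues normalised together (crosses), with the number of measured genes in brackets. Lists of red pulp and marginal zone macrophages, stroma and cell cycle lie to the right of 0 in all 3, reticulocyte genes to the left in all 3, and the liver and platelet lists differ most between the experiments.

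Whether the tissue difference changed between days 15 and 44 was tested in the same fit. It did for 933 genes (5.62%), 308 of them (1.86%) with a higher and 625 with a lower spleen minus blood value at day 44. Experiment I alone gave 1340 (8.08%), experiment II alone 120 (0.723%), and without the 3 mice with pancreatic transcripts it was 127. Of the 31 B cell genes, 11 were called lower at day 44, against 3.77% of all genes. Cd79a was 2.13 at day 15 and 0.82 at day 44, a change of -1.31 ± 0.26 (limma adjusted p 0.0115). The change was -1.97 in experiment I but -0.65 in experiment II, where it did not pass the test (limma adjusted p 0.19). Of 22 MHC class II genes 7 were called lower at day 44, and H2-DMa, a peptide exchange factor, passed within both experiments, at -1.67 and -0.79. Cd74, the invariant chain, did so too. The largest positive change was in Msrb1, a methionine sulphoxide reductase of neutrophils and liver (1.99 ± 0.45), at 3.44 in experiment I but 0.54 in experiment II. In experiment I blood the median liver list level was 11.5 at day 15 and 9.44 at day 44, and its part in these changes was not tested.

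The tissue difference was also set against that of the 24 Ncf1 mutated mice, with 48 mice in the fit. It differed for 679 genes (4.09%), 207 (1.25%) with a higher and 472 with a lower value in wild type. In experiment I alone 40 genes (0.241%) were called and in experiment II alone 952 (5.74%). Of 44 cell cycle genes 32 were lower in wild type, against 2.84% of all genes, as were 11 of 16 erythroid membrane genes, 9 of 16 haem genes and 9 of 23 granule precursor genes. The difference of Mpo was 3.79 in wild type but 5.54 in mutated mice, so the wild type value was lower by -1.75 ± 0.20 (limma adjusted p 2.5e-07), with -1.75 and -1.76 in the experiments. Ctsg and Elane, serine proteases of the same primary granules, were lower by -1.82 ± 0.22 and -1.62 ± 0.22. In the other direction, the microglia and macrophage gene Aif1 was 2.98 in wild type but 1.96 in mutated mice (1.02 ± 0.11, limma adjusted p 1.3e-07), and the interferon-induced GTPase Gbp2 was 1.04 and -0.05. The acute phase genes Orm2, Saa1 and Saa2 were called too, but their terms in experiment II lay between -0.11 and 0.06.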

How the data were processed

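RNA from whole spleens and from whole blood was labelled and hybridised to Illumina bead arrays, per the labels' protocols. The deposited values are probe intensity on a linear scale, and log2 was taken of them. The values show that the authors' arrays were quantile normalised within each tissue; limma is named in the submitters' processing notes, and no detection p or background step is given in the sources used here. Of 25697 probes, 23978 named 1 gene, 0 named several and 1719 named none; 23962 matched the GRCm38.p6 gene table, which was used for names. The brightest probe of each of 16593 genes was kept (4777 genes had several).

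Limma 3.58.1 in R 4.3.3 fitted the spleen minus blood difference of each of 24 mice, with day and experiment as centred terms and Benjamini-Hochberg adjustment over all genes. The fit was checked on simulated data. The pairs come from the same animal by the labels. The correlation of both tissues' deviations within a mouse had a median of 0.12 (-0.38 to 0.31), over 0.1 in 15 of 24 mice, and -0.03 between mice. Statmod 1.5.0 estimated the random block.

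Named genes were the 15 largest differences each way among marking genes with 1 sign in all 24 mice, up to 5 marking members of each of 37 lists (1095 symbols, 949 measured), and the 8 largest each way among called genes for the day, experiment and genotype terms. Any other gene named was picked after its values were seen. Members and lists were chosen with earlier results of these data known. The liver list and experiment II on the common scale were added after the data were seen. Alternatives were other normalisations, normexp with an offset of 50, every probe, brighter genes only, fits without terms or pairing, and subsets of the mice. Lists were described by counts and medians, with no set test. The number of arrays limits the precision.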

Additional observations from a re-analysis of the deposited data

Results flagged for a closer look

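The difference between spleen and blood was tested for a change between days 15 and 44, and the genes given here differed between the days by that test at an adjusted p under 0.05 (limma, 12 mice per day). As changes in the log2 difference from day 15 to day 44, the higher values were in Msrb1 (1.99), 1300017J02Rik (1.72), Retsat (1.61), Lrg1 (1.59), Slc6a9 (1.51), Abcb4 (1.47), Gch1 (1.45), Clec4g (1.44). The lower values were in Cd79a (-1.31), S100a11 (-1.39), Lbh (-1.37), Parvg (-1.28), Cd74 (-1.24), H2-DMa (-1.23), Ly6e (-1.22), Blk (-1.21). Of these 16 genes, Cd74 and H2-DMa also passed within experiment II, and the others passed within experiment I and did not pass within experiment II. Liver list levels in experiment I blood were 10.2 to 12.1 at day 15 and 6.53 to 11.9 at day 44.

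The same difference was tested between genotypes, and the genes given here differed by that test (limma, 24 mice per genotype). As wild type minus mutated values of the log2 difference, the higher ones were Orm2 (1.64), Saa2 (1.29), Saa1 (1.16), Gbp2 (1.09), Mt1 (1.09), Aif1 (1.02), Gvin1 (1.02), Tmem176a (0.85). The lower ones were Aqp1 (-1.27), Mpo (-1.75), Ctsg (-1.82), Elane (-1.62), Ms4a3 (-1.46), Slc38a5 (-1.37), Cebpe (-1.31), Hemgn (-1.26). Within experiment II the terms of Orm2, Saa1, Saa2 and Mt1 did not pass the test, and those of the other 12 genes did. Within experiment I, Mpo, Ctsg, Elane, Ms4a3, Cebpe, Orm2, Saa1, Saa2 and Aif1 passed.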

How the results depend on the processing

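With both tissues quantile normalised together, 528 genes marked spleen and 559 blood, and 4743 and 4614 were called higher in spleen and blood at any size. In experiment II on that scale these were 639, 518, 3916 and 3424, and 117 genes changed with day. Centring arrays on their median gave 1606 spleen genes, and 7019 called higher in blood, against 1786 in the reported fit. Genes called higher in blood numbered 1149 among the brighter genes, where fewer genes were tested, 999 in experiment II and 1007 at day 44. A test against a 2-fold difference (limma treat) left 1374 spleen and 200 blood genes, and a 4-fold limit 268 and 116. Genes that changed with day numbered 196 without the experiment term, 120 in experiment II and 127 without the 3 mice with pancreatic transcripts. Genes that differed by genotype numbered 40 in experiment I, 58 at day 15 and 271 at day 44.

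Without the pairing of tissues by mouse (no replicate block), 2416 and 339 genes marked spleen and blood, 9720 and 1856 were called higher at any size, 1177 changed with day, 5477 differed by experiment and 621 by genotype. With the mouse as a random block (correlation 0.0155), 9744 and 1870 were called, and the pairing changed no count by over 1.5 times.

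Of the named genes' differences, 2561 values under the alternatives kept direction and call, 19 lost the call and 15 turned. All losses and turns fell in fits of a single experiment. Named genes were picked by calls in the reported fit, so the counts are no independent test of it. Ppbp was 0.18 in experiment I. In experiment II Serpinf2 was 0.14, Proc 0.00036, F2 0.051, Car3 0.024, Apoa2 0.056 and Apoa1 0.047. In experiment II on the common scale Tal1 was -0.011, Treml4 -0.21, H2-Ea -0.25, Cxcr4 -0.44, Psmb1 -0.17, Gadd45b -0.058, Serpinf2 0.075 and Car3 0.015. Among list medians, that of globin genes was 0.015 at day 44, germinal centre genes -0.011 and type I interferon genes -0.039 on the common scale, and in experiment II on that scale erythroid regulators -0.042, germinal centre genes -0.10 and type I interferon genes -0.14. The median of clotting genes turned to 0.051 in experiment II. The cause was not tested.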

Other observations

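Among the 1719 probes with no gene named here, 178 were at least 2-fold higher in spleen and 33 at least 2-fold higher in blood with an adjusted p under 0.05 by limma over the same 24 mice. By the same limits 2416 (14.6%) and 339 (2.04%) of the 16593 named genes passed. Each named gene was read by its brightest probe and the others are single probes, so the counts are not like for like.

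Genes for early responses and stress fell on both sides, and the balance depended on the scale. Of 30 measured, 7 marked spleen and 2 marked blood as deposited, where 14.6% and 2.04% of all genes did so. On the common scale 2 marked spleen and 5 marked blood, with a median of -0.08. In experiment II on that scale 2 marked spleen and 6 marked blood, with a median of -0.06. Rgs1, a regulator of G protein signalling in lymphocytes, was at 8.19 to 9.92 in spleen and 6.10 to 6.89 in blood (2.42 ± 0.07, limma, n = 24 mice), and it kept 1.49 in experiment II on the common scale. Egr1, an immediate early factor, was 2.27 ± 0.16. The damage response gene Gadd45a was higher in blood (-1.42 ± 0.14), as was Jund (-1.07).

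Among the largest negative experiment terms were 3 genes of histone H4. H4c11 was 0.21 in experiment I but -3.09 in experiment II, an experiment term of -3.29 ± 0.33 (limma adjusted p 1.4e-07), and H4c6 and H4c9 had terms of -3.36 and -3.33. Over all genes the term was called for 5423 (32.7%).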
